A study of Mus musculus with 8 samples.

Results

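Transcript levels of 8 genes of cardiac pacemaking, impulse conduction and cell coupling were described across 8 mouse hearts: the pacemaker channel genes Hcn2 and Hcn4, the T-type calcium channel gene Cacna1g, the sodium channel genes Scn4b and Scn10a, and the connexin genes Gja1, Gja5 and Gjc1. They were found by matching these symbols to the gene identifiers of the count table through the GENCODE M21 annotation, which gave 8 of its 45706 genes. All 8 passed the filter on low counts, which kept 15289 genes. Ordered by level per kb of the longest transcript, Gja1 stood first in the control hearts and Scn10a last.

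Hcn channels open on hyperpolarisation and carry the inward current that brings a pacemaker cell back towards its threshold. Voltage-gated sodium channels then give the fast upstroke of the action potential, and T-type calcium channels contribute to late diastolic depolarisation in nodal cells. Connexins assemble into gap junction channels that pass the impulse from cell to cell, with Gja1 (connexin 43) the main connexin of working ventricular muscle, Gja5 (connexin 40) found in atria, the His-Purkinje system and arterial endothelium, and Gjc1 (connexin 45) in nodal tissue.

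RNA was measured by sequencing in whole hearts of 8-week-old male mice. The conditional knockout group (cKO, 4 hearts) had the genotype Elmsan1 fl/fl;aMHC-Cre+/-. The floxed control group (2 hearts) was Elmsan1 fl/fl without the transgene, and the Cre control group (2 hearts) carried aMHC-Cre+/- without floxed alleles. Elmsan1, also called Mideas, encodes a subunit of a histone deacetylase complex, and the question was what its loss from cardiomyocytes does to cardiac transcripts. The cKO hearts share the floxed alleles with one control group and the Cre transgene with the other, and no group lacks both. The aMHC (Myh6) promoter drives Cre in cardiomyocytes, so the other cells of the heart keep the gene, and RNA from all cells was measured together. In such bulk samples fewer cells of a type and less RNA per cell cannot be told apart.

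The libraries held between 17509564 and 25833259 estimated counts. The Elmsan1 level was 15.2, 15.5, 15.3 and 12.0 CPM (counts scaled to a common library size) in the cKO hearts, against 27.6 and 25.6 in floxed and 28.6 and 25.3 in Cre hearts. It was thus lower in all 4 cKO hearts, by 1.85-fold, with an adjusted p of 8.94e-05 (Benjamini-Hochberg, from the quasi-likelihood test of edgeR). The counts are per gene, and which exons were deleted was not known here. Summed ventricular markers lay between 20757 and 23469 CPM in cKO and between 19985 and 22623 in controls, with 2 of 8 called higher and 2 lower. Summed atrial markers differed: they lay between 4751 and 10398 CPM in cKO and between 1786 and 3345 in controls, and 8 of 10 were called higher. Nppa was the largest part of the atrial sum, at 2730 to 6090 CPM in cKO and 1156 to 1881 in controls. The markers not called were Bmp10 (log2 fold change -0.63) and Fgf12 (0.84). Whether the sum follows the number of atrial cells was not tested. The lowest atrial sum was that of Cre heart 2, and the other 3 controls lay between 2981 and 3345. Endothelial markers summed to between 1059 and 1292 CPM in cKO and between 833 and 900 in controls, with 7 of 10 called higher and 1 lower. The macrophage marker sum also lay higher in every cKO heart (304 to 403 against 202 to 257 CPM, 5 of 8 called higher). The fibroblast sum was 978 to 1261 CPM in cKO and 717 to 969 in controls, so its lowest cKO value was close to the highest control value. Of the fibroblast markers 2 of 8 were called higher, near the share over all genes. That share, against which all these marker counts are read, was 25.6% called higher and 26.5% lower.

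Against the mean of the control groups, 3 of the 8 genes were called lower in cKO hearts at an adjusted p under 0.05: Hcn4 by 5.51-fold, Gja1 by 2.72-fold and Cacna1g by 1.35-fold. Of all genes tested, 26.5% were called lower, and the share among the 8 is read against that figure. No member was called higher, where 25.6% of all genes were. No member had an unadjusted p under 0.05 in the higher direction with edgeR, and DESeq2 and limma voom called none higher. Only Hcn4 and Gja1 had every cKO heart below every control heart, and 25.9% of all genes tested did. Hcn2, Scn4b, Scn10a, Gja5 and Gjc1 did not pass the test.

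**Figure D1:**
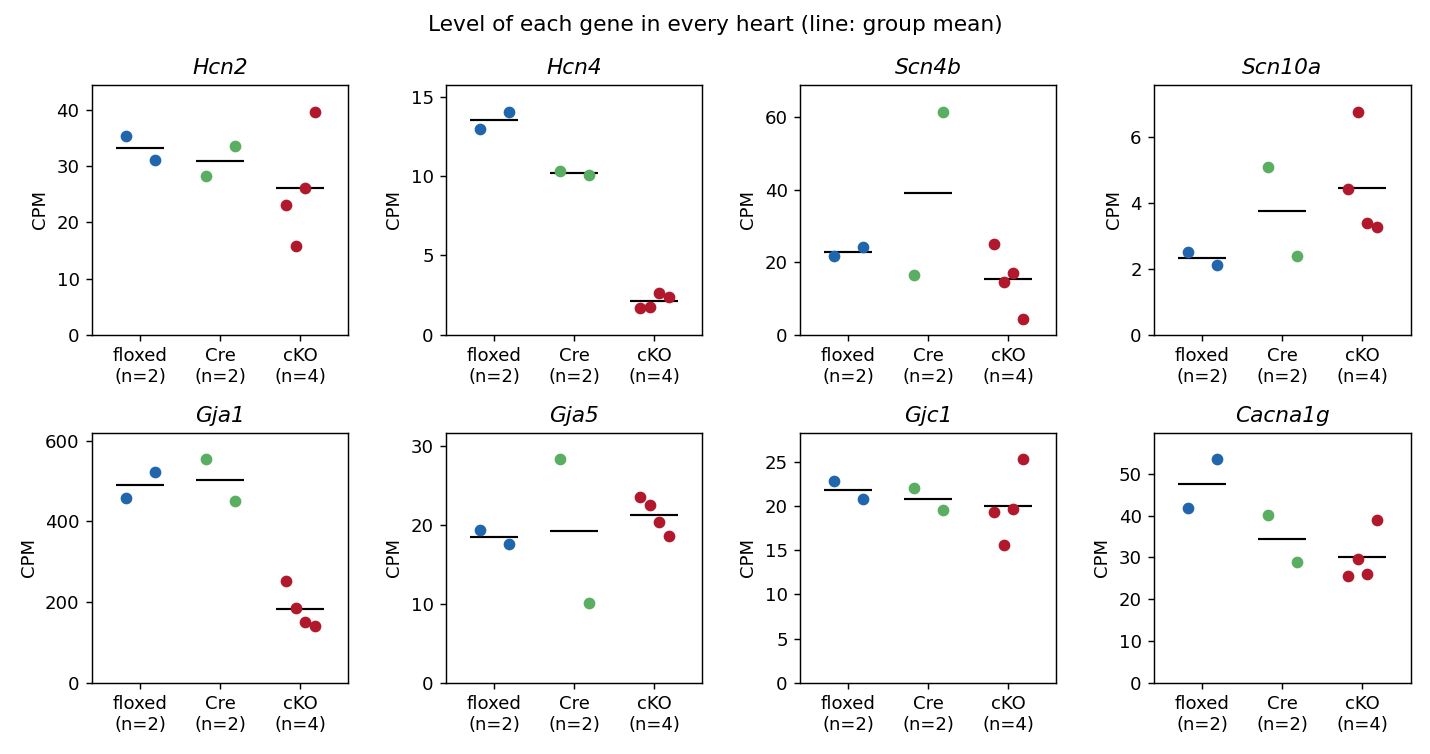
Level of each gene in CPM (linear axis from 0) in every heart, with floxed, Cre and cKO groups side by side, each point 1 heart and each line a group mean. The 4 cKO hearts lie below all 4 controls for Hcn4 (at most 2.61 against at least 10.1) and Gja1 (at most 253 against at least 449), and the groups overlap for the other 6 genes.

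Hcn4, the main pacemaker channel gene of the sinoatrial node, lies at chr9:58823412-58863175 on the plus strand (GRCm38). Its level was 1.68, 1.78, 2.61 and 2.36 CPM in the 4 cKO hearts, 13.0 and 14.1 CPM in the floxed hearts and 10.3 and 10.1 CPM in the Cre hearts. The cKO hearts were all low and close together, and no cKO value came near a control value. The levels rest on 32, 36, 61 and 62 estimated counts in cKO and on 201 to 303 in controls. The mean was 2.11 ± 0.450 (SD, n = 4) in cKO and 11.8 ± 1.98 (SD, n = 4) in controls, a log2 fold change of -2.46 (SE 0.16) with an adjusted p of 1.24e-05 by edgeR's quasi-likelihood test. The fall was 6.34-fold against the floxed hearts and 4.78-fold against the Cre hearts, comparisons that share the cKO libraries. The control groups themselves differed by -0.41 on the log2 scale (Cre against floxed, edgeR unadjusted p = 0.0665, adjusted p = 1), and this contrast also tests whether those 2 falls differ. Hcn4 was called lower under each of 21 alternative settings, with log2 fold changes from -2.76 to -2.26.

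Hcn2, the family member most abundant in these hearts, lies at chr10:79716634-79736108 on the plus strand. It stood at 23.0, 15.8, 26.1 and 39.6 CPM in cKO hearts, 35.4 and 31.1 in floxed and 28.2 and 33.5 in Cre. cKO hearts 1, 2 and 3 were below every control and cKO heart 4 was above all of them, so the groups overlap. The log2 fold change was -0.29 (SE 0.25, 95% interval -0.87 to 0.29), with an edgeR adjusted p of 0.369. The call turned on that heart: without cKO replicate 4 the log2 fold change was -0.56 and the edgeR adjusted p 0.0157. Correcting each library for the length and GC content of transcripts gave -0.72 (edgeR adjusted p = 0.0356).

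Within the HCN family, Hcn2 held 82.8 ± 1.99% (SD, n = 4) of the family's CPM per kb in controls and 94.9 ± 1.15% in cKO hearts, and Hcn4 16.0 ± 2.27% and 4.28 ± 1.16%. The log2 ratio of Hcn4 to Hcn2 per kb, which does not depend on how libraries are scaled, was -2.38 ± 0.239 in controls and -4.51 ± 0.421 in cKO (SD, n = 4 each, exact two-sided permutation test, p = 0.0286, the smallest that 70 splits allow, and 0.0381 adjusted over 4 ratios). All 4 cKO ratios were below all 4 control ratios. The HCN total was 8.58 ± 3.19 CPM per kb in cKO and 12.1 ± 1.09 in controls. Hcn3 was under the filter on low counts.

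The promoters of Hcn4 and Hcn2 are shown together because one gene fell and the other did not pass the test. The windows run from 250 bases before to 50 after the RefSeq transcription start (GRCm38.p6), 5′ to 3′ on the gene's strand, at chr9:58822699-58822998 for Hcn4 and chr10:79716384-79716683 for Hcn2. Capitals mark GC boxes (GGGCGG or its reverse complement), the binding letters of Sp1-type factors.
Hcn4: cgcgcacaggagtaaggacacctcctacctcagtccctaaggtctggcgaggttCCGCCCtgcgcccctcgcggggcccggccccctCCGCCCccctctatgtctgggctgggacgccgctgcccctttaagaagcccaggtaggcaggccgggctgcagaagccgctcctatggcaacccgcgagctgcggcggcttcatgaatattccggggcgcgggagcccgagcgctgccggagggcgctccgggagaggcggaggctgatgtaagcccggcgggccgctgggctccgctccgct
Hcn2: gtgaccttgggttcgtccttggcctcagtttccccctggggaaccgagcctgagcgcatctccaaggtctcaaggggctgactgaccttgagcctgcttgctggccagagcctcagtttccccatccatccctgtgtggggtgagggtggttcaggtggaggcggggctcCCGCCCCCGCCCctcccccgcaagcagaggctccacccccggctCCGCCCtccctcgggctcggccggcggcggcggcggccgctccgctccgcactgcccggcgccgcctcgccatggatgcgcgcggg
Both windows are rich in G and C, at 71.7% in Hcn4 and 72.3% in Hcn2, where the median of all 32841 RefSeq mouse windows is 52.7%. The Hcn4 window has 31 CpG dinucleotides and 2 GC boxes and the Hcn2 window has 26 and 3. A GC box is in 35.7% of all windows, so its presence does not set these promoters apart. The same search on both strands covered TATAAA, the AP-1 letters TGANTCA, the GATA letters AGATAA, the T-box letters GGTGTGA, the E-box CACGTG and a MEF2 motif, and none of these letters occur in either window.

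Cacna1g encodes the T-type calcium channel Cav3.1 and lies at chr11:94408391-94474198 on the minus strand. The cKO hearts had 25.5, 29.5, 26.1 and 39.1 CPM, the floxed hearts 41.8 and 53.5 and the Cre hearts 40.1 and 28.8. All 4 cKO hearts were below every control but Cre heart 2, which lay among the cKO hearts, so the groups overlap. The log2 fold change was -0.43 (SE 0.16) with an edgeR adjusted p of 0.0477. That call was lost under 12 of 21 alternatives. Among them was the removal of cKO replicate 1, 2 or 3, floxed replicate 2 or Cre replicate 1, with edgeR adjusted p values of 0.111, 0.108, 0.125, 0.155 and 0.168. It rested on the floxed hearts: against them the log2 fold change was -0.66 (edgeR adjusted p = 0.0199), against Cre hearts -0.20 (edgeR adjusted p = 0.448). The difference between these 2 contrasts, -0.46, did not pass the test (edgeR unadjusted p = 0.0701, adjusted p = 1). Its relative Cacna1h, the other T-type gene of this tissue, was at 0.19 (SE 0.28) and was not called. The share of Cacna1g in the T-type total per kb was 37.5 ± 7.71% in cKO and 48.9 ± 7.39% in controls (SD, n = 4 each), and the values of single hearts overlapped.

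Scn4b encodes a beta subunit that alters the gating of cardiac sodium channels and lies at chr9:45138395-45154152 on the plus strand. Its level was 25.1, 14.7, 17.2 and 4.42 CPM in cKO hearts, 21.7 and 24.2 in floxed and 16.6 and 61.6 in Cre hearts. Its fold change had the largest SE of the 8 genes: cKO heart 4 was far below the others, Cre heart 2 far above, and cKO heart 1 exceeded 3 of the controls. The log2 fold change was -0.97 with an SE of 0.63 (95% interval -2.54 to 0.60, edgeR adjusted p = 0.249). Leaving out cKO replicate 4 gave -0.65 and leaving out Cre replicate 2 gave -0.38, and no alternative called it.

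Scn10a encodes the tetrodotoxin-resistant channel Nav1.8, best known from sensory neurons, and lies at chr9:119608456-119719322 on the minus strand. Its level was low, at 4.42, 6.77, 3.38 and 3.28 CPM in cKO hearts, 2.53 and 2.11 in floxed and 5.09 and 2.41 in Cre hearts. All cKO hearts exceeded the floxed hearts and Cre heart 2, and Cre heart 1 exceeded 3 of the 4 cKO hearts. The log2 fold change against the mean of the controls was 0.58 (SE 0.29, edgeR adjusted p = 0.120). Against the floxed hearts it was 0.93 (edgeR unadjusted p = 0.0323, adjusted p = 0.0691), and against Cre hearts 0.23 (edgeR adjusted p = 0.627). Without Cre replicate 1 the value was 0.91 with an edgeR adjusted p of 0.0312, and 3 of 21 alternatives called it higher.

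Neurons and Schwann cells, which could carry Scn10a transcripts, were followed through their markers. The 10 neuron markers summed to 20.9 to 32.0 CPM in cKO and 14.1 to 20.1 in controls. Of 6 tested, 2 were called higher, Uchl1 and Stmn2, where 25.6% of all genes were, and the arterial endothelial list also holds Stmn2. Across the cKO hearts the neuron sum did not follow Scn10a: it was lowest in heart 2, where Scn10a was highest, and highest in heart 4, where Scn10a was lowest. The defining markers Th, Chat and Elavl4 were under the filter, at or below 0.344 CPM in every heart. The 6 Schwann cell markers summed to 25.1 to 30.1 CPM in cKO and 18.9 to 19.7 in controls, and 3 of 6 were called higher. The atrial sum in cKO hearts 1 to 4 was 4751, 10398, 7157 and 8185 CPM, where Scn10a was 4.42, 6.77, 3.38 and 3.28 CPM. The part of Schwann and atrial cells in the Scn10a values was not tested.

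Of the other sodium channel alpha subunit genes, the skeletal muscle channel Scn4a fell 2.55-fold and the sodium-sensing channel gene Scn7a rose 1.31-fold. The alpha subunit total was 33.0 ± 3.66 CPM per kb in cKO and 52.0 ± 4.50 in controls. Scn10a made up 2.00 ± 0.603% of it in cKO and 0.888 ± 0.455% in controls. Scn4b held 15.7 ± 6.58% of the beta subunit total per kb in cKO and 35.9 ± 9.92% in controls, with cKO values between 6.72% and 22.1% and control values between 24.1% and 48.3%.

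**Figure D2:**
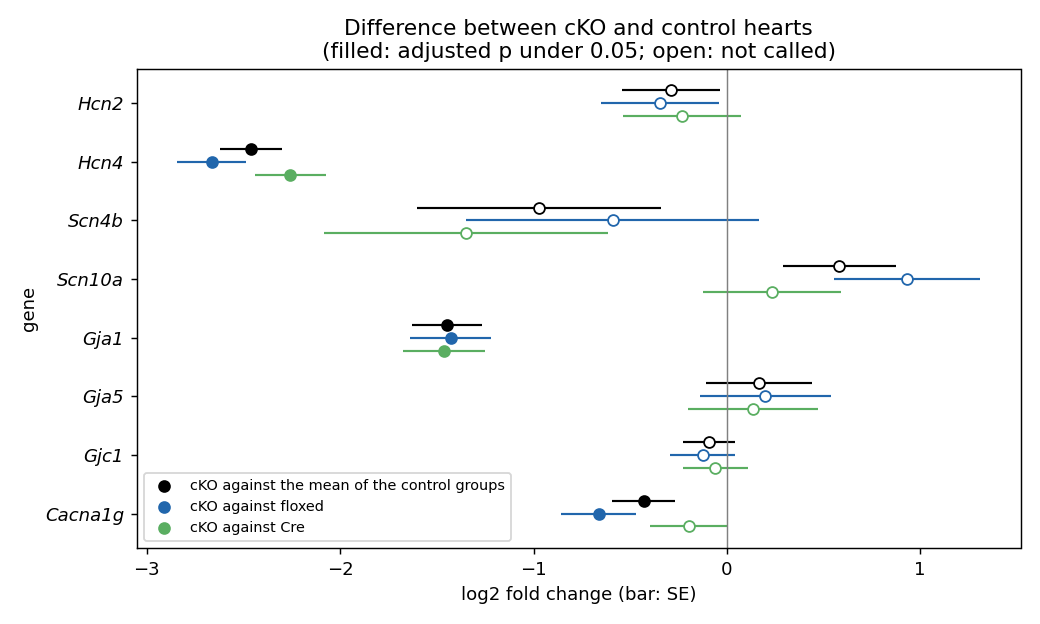
Log2 fold change of each gene in cKO hearts against the mean of the controls, against floxed hearts and against Cre hearts, with bars of 1 SE, filled points for an edgeR adjusted p under 0.05 and a line at 0. Hcn4 (-2.46, -2.66 and -2.26) and Gja1 (-1.45, -1.43 and -1.46) lie left of 0 in all 3 contrasts, and the bars of Scn4b are the widest.

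Gja1, connexin 43, lies at chr10:56377330-56402513 on the plus strand. Its level was 253, 184, 150.2 and 140.3 CPM in cKO hearts, 457 and 522 in floxed and 554 and 449 in Cre hearts. Every cKO heart was well below every control heart, and the control groups overlapped each other. The mean was 182 ± 51.1 CPM in cKO and 496 ± 50.6 in controls (SD, n = 4 each), a log2 fold change of -1.45 (SE 0.18) with an edgeR adjusted p of 0.000150. It fell 2.69-fold against floxed and 2.76-fold against Cre hearts. Gja1 was called lower under each of 21 alternatives, with log2 fold changes from -1.66 to -1.19.

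Gja5, connexin 40, lies at chr3:96904693-97077416 on the plus strand and overlaps Gpr89 and 2 antisense RNA genes, among others, on the other strand, so that without a stated strand setting its counts may hold reads of those genes. Its level was 23.5, 22.4, 20.4 and 18.6 CPM in cKO hearts, 19.4 and 17.5 in floxed and 28.3 and 10.1 in Cre hearts. The cKO hearts lay inside the range of the controls, which was set by the 2 Cre hearts, one the highest and the other the lowest of all 8. The log2 fold change was 0.17 (SE 0.28, 95% interval -0.47 to 0.80, edgeR adjusted p = 0.636). Without Cre replicate 1 it was 0.63 with an edgeR adjusted p of 0.00276, and without Cre replicate 2 it was -0.13 (edgeR adjusted p = 0.400). The atrial sum was 4751, 10398, 7157 and 8185 CPM in cKO hearts 1 to 4, 2981 and 3007 in floxed hearts and 3345 and 1786 in Cre hearts. Arterial endothelial markers summed to 97.5 to 121 CPM in controls and 144 to 170 in cKO, with 5 of 8 called higher where 25.6% of all genes were. The sums of both marker lists thus moved with genotype, and the part of atrial and arterial endothelial cells in the Gja5 values was not tested.

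**Figure D3:**
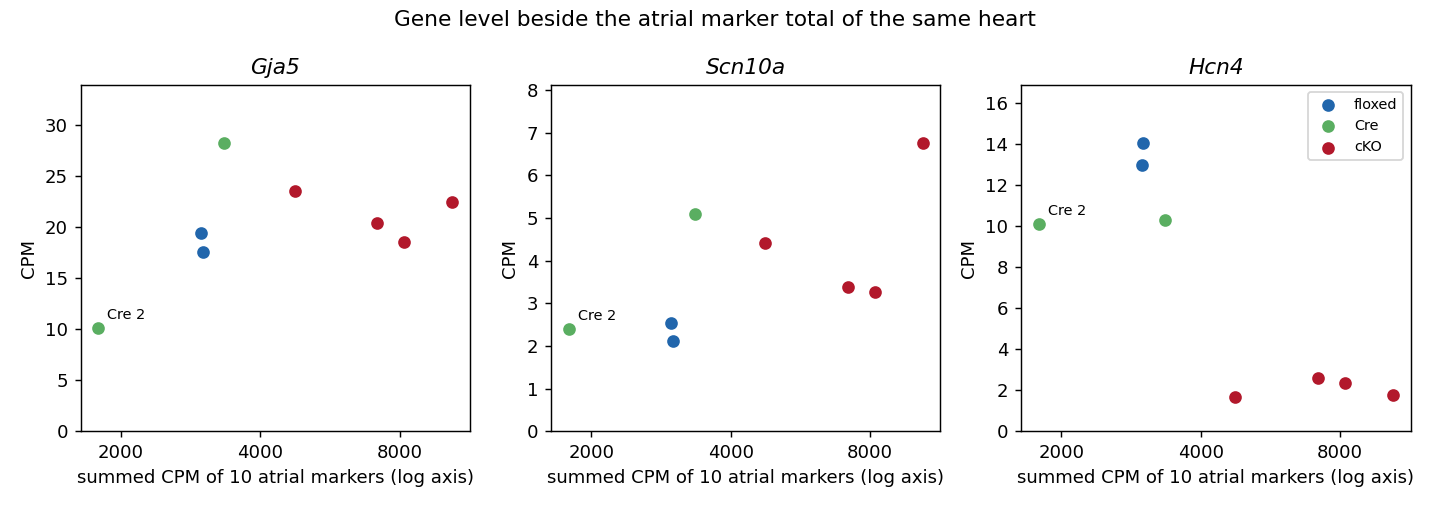
Level of Gja5, Scn10a and Hcn4 (CPM, linear axis from 0) against the summed CPM of 10 atrial markers (log axis), each point 1 heart coloured by group. The cKO hearts have the highest atrial sums (4751 to 10398 CPM), and their Gja5 (18.6 to 23.5 CPM) lies between those of the Cre hearts. Within cKO, heart 1 has the lowest sum (4751 CPM) and the highest Gja5 (23.5 CPM). Cre heart 2 has the lowest sum (1786 CPM) and the lowest Gja5 (10.1 CPM), and Cre heart 1 (3345 CPM) has the highest Gja5 (28.3 CPM). Hcn4 is low in all cKO hearts.

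Gjc1, connexin 45, lies at chr11:102799579-102819700 on the minus strand. Its level was 19.3, 15.7, 19.7 and 25.3 CPM in cKO hearts, 22.9 and 20.8 in floxed and 22.1 and 19.6 in Cre hearts. It was the least variable of the 8 across hearts, and the groups overlapped. The log2 fold change was -0.09 (SE 0.14) with a 95% interval from -0.39 to 0.21 (edgeR adjusted p = 0.595), and no alternative called it.

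With Gja1 down and Gja5 and Gjc1 uncalled, the make-up of the connexin transcripts differed between genotypes. Summed over 20 connexin genes, the level was 148 ± 14.5 CPM per kb in controls and 70.1 ± 11.1 in cKO (SD, n = 4 each). Gja1 held 85.8 ± 1.57% of that total in controls and 65.9 ± 8.60% in cKO. The share of Gja5 was 3.39 ± 1.09% in controls and 8.33 ± 0.840% in cKO, and that of Gjc1 4.24 ± 0.399% and 8.54 ± 2.32%. Gja4, not one of the members, gained more, from 3.39 ± 0.804% in controls to 12.8 ± 4.48% in cKO. The log2 ratio of Gja5 to Gja1 per kb was -4.72 ± 0.512 in controls and -2.98 ± 0.250 in cKO, and that of Gjc1 to Gja1 was -4.34 ± 0.154 and -2.98 ± 0.575 (SD, n = 4 each). For each ratio all cKO hearts were above all controls (exact two-sided permutation test, p = 0.0286, and 0.0381 adjusted over the 4 ratios). These ratios show unequal change, not that Gja5 or Gjc1 kept its level.

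**Figure D4:**
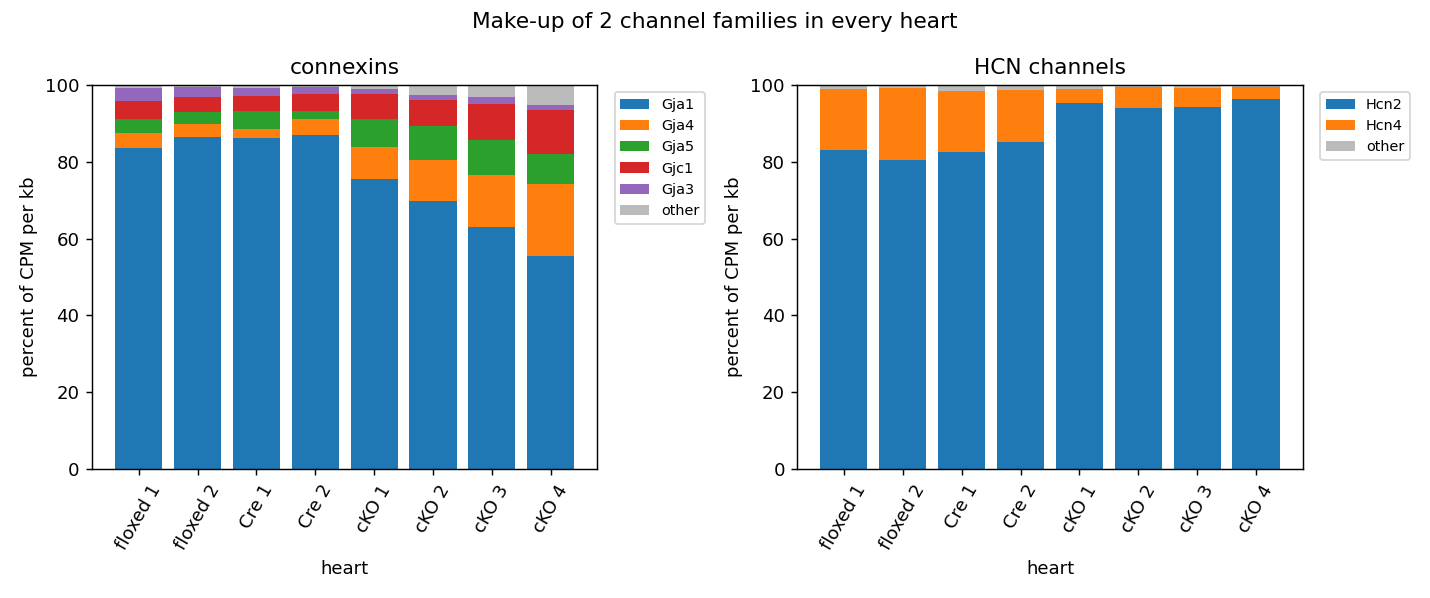
Share of each family's CPM per kb (percent) held by its genes in every heart, for the connexins (left) and the HCN channels (right), as stacked bars. Hcn4 holds 13.4 to 18.9% of the HCN total in control hearts and 3.00 to 5.53% in cKO hearts, and Gja1 holds 83.5 to 87.0% of the connexin total in controls and 55.5 to 75.4% in cKO hearts.

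The promoters of Gja1 and Gja5 are shown as the connexin pair whose ratio differed between genotypes. The windows, again 250 bases before to 50 after the RefSeq start on the gene's strand (GRCm38.p6), lie at chr10:56377050-56377349 and chr3:97032152-97032451. Capitals mark a GATA match and an AP-1 match in Gja1 and a GC box in Gja5.
Gja1: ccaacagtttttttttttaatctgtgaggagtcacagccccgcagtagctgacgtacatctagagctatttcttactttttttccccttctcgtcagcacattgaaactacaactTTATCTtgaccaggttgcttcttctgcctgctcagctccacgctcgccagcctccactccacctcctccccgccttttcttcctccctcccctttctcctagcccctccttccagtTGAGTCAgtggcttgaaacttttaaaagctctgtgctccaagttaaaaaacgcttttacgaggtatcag
Gja5: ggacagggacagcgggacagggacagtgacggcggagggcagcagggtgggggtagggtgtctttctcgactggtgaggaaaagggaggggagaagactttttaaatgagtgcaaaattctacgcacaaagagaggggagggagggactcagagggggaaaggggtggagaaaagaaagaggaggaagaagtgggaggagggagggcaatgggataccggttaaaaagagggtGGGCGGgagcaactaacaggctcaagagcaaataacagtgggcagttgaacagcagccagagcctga
The Gja1 window has 47.7% G and C and 8 CpG, with TGAGTCA starting at base -19 from the start and the GATA letters, read on the opposite strand, at base -135. AP-1 letters are in 7.81% of all windows and GATA letters in 11.2%. The Gja5 window has 55.7% G and C, 7 CpG and 1 GC box at base -17. TATAAA (13.6% of all windows), GGTGTGA (3.98%), CACGTG (7.15%) and the MEF2 motif (3.19%) were found in neither. Neither Scn4b (66.3% G and C) nor Scn10a (51.7%) had any of the 7 motifs in its window. These matches describe letters and not bound sites.

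Compared per kb of transcript, Gja1 was the most abundant of the 8 in controls, at 127 CPM per kb, and Hcn2 followed at 10.03. Gjc1 (6.26), Scn4b (6.23), Gja5 (5.13) and Cacna1g (4.90) came next, with ranges over hearts that overlapped one another. Below them stood Hcn4 at 1.94 and Scn10a at 0.453 CPM per kb. In cKO hearts these last genes stood in the opposite order, Scn10a at 0.667 and Hcn4 at 0.345 CPM per kb. Their ranges over single hearts did not overlap in either set. Scn10a lay between 0.489 and 1.01 and Hcn4 between 0.275 and 0.427 in cKO, and they lay between 0.316 and 0.761 and between 1.65 and 2.30 in controls. Gja1 stayed the highest in cKO, at 46.8 CPM per kb.

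Between the control groups no member was called in either direction with edgeR (0 at an unadjusted p under 0.05), DESeq2 (0 unadjusted) or limma voom (1 lower unadjusted). Over all genes 0.0916% were called lower and 0.00654% higher in Cre against floxed hearts. Against the floxed hearts 3 members were called lower, Hcn4, Gja1 and Cacna1g, where 23.1% of all genes were, and none higher, where 19.8% were. In that direction Scn10a alone had an unadjusted p under 0.05 with edgeR, and it was called by DESeq2 but not by limma voom. Against the Cre hearts 2 were called lower, Hcn4 and Gja1, where 22.8% of all genes were. None was called higher against Cre (0 at an unadjusted p under 0.05 with edgeR, and 0 called with DESeq2 and with limma voom), where 19.6% of all genes were.

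The surrounding genes were described through 8 lists of channels, junction proteins and transcription factors holding 99 genes, the 8 members included. Of these 75 were tested, 32 were called lower and 12 higher where 26.5% and 25.6% of all genes were, and the median log2 fold change was -0.14, where the median over all genes tested was 0.04. The list of gap junction scaffold and trafficking genes had 9 of 12 lower, 1 higher and a median of -0.61. For this list the number lower was 7 with library size alone, with upper-quartile scaling and with the length and GC offset. In it the intercalated disc genes Ctnna3 (alpha-T-catenin), Dsp (desmoplakin), Cdh2 (N-cadherin) and Cxadr fell by 4.05-fold, 3.75-fold, 3.10-fold and 1.90-fold, and Bin1, which shapes T-tubule membranes, rose 1.83-fold. Dsp, which anchors desmosomes to intermediate filaments, went from 1208 ± 81.6 CPM in controls to 322 ± 81.3 in cKO (SD, n = 4 each). These falls stood beside that of Gja1, whose channels sit at the same discs.

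Among 23 connexin and pannexin genes 10 were tested, 2 were lower and 4 higher (all genes 26.5% and 25.6%), but with the length and GC offset 1 was called higher. Gja3 (connexin 46) fell from 10.2 ± 2.72 to 2.51 ± 0.348 CPM, 4.00-fold, and Gja1 and Gja3 were the 2 called lower. Gja4 (connexin 37, an arterial endothelial connexin) rose 1.77-fold, from 8.34 ± 1.33 to 14.7 ± 3.97 CPM, beside the endothelial and arterial marker sums given above (the arterial list includes it), and it was not called with the length and GC offset (log2 0.15). Gjd3 was called higher at a mean level of 0.594 CPM, and the call was lost without either floxed heart or without Cre heart 2, with edgeR adjusted p values of 0.100, 0.0882 and 0.110. Panx1, which forms channels to the outside of the cell, rose 1.81-fold.

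Of the sodium channel and HCN partners, 12 were tested, 5 were lower and 3 higher (all genes 26.5% and 25.6%), and 5 and 5 with upper-quartile scaling. The channel modulator Fgf13, the trafficking protein Gpd1l and the membrane anchors Ank2 and Ank3 fell by 2.33-fold, 2.29-fold, 2.00-fold and 2.00-fold. Pex5l (TRIP8b), which binds the tail of HCN channels, rose 2.75-fold from a level of 0.438 CPM. Cav3 and Rangrf were called higher (1.49-fold and 1.47-fold), but with the length and GC offset they were at -0.14 and -0.045 on the log2 scale. Of 14 calcium channel subunits tested, 5 were lower, Cacna1g among them, and 1 higher (all genes 26.5% and 25.6%). This balance was 3 lower and 3 higher with library size alone and 2 and 2 with the offset. Cacna1s, Cacna2d1, Cacna1c (the cardiac L-type pore) and Cacnb2 fell by 2.77-fold, 2.35-fold, 1.45-fold and 1.36-fold, the last 2 uncalled with the offset, and Cacnb3 rose 2.48-fold.

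**Figure D5:**
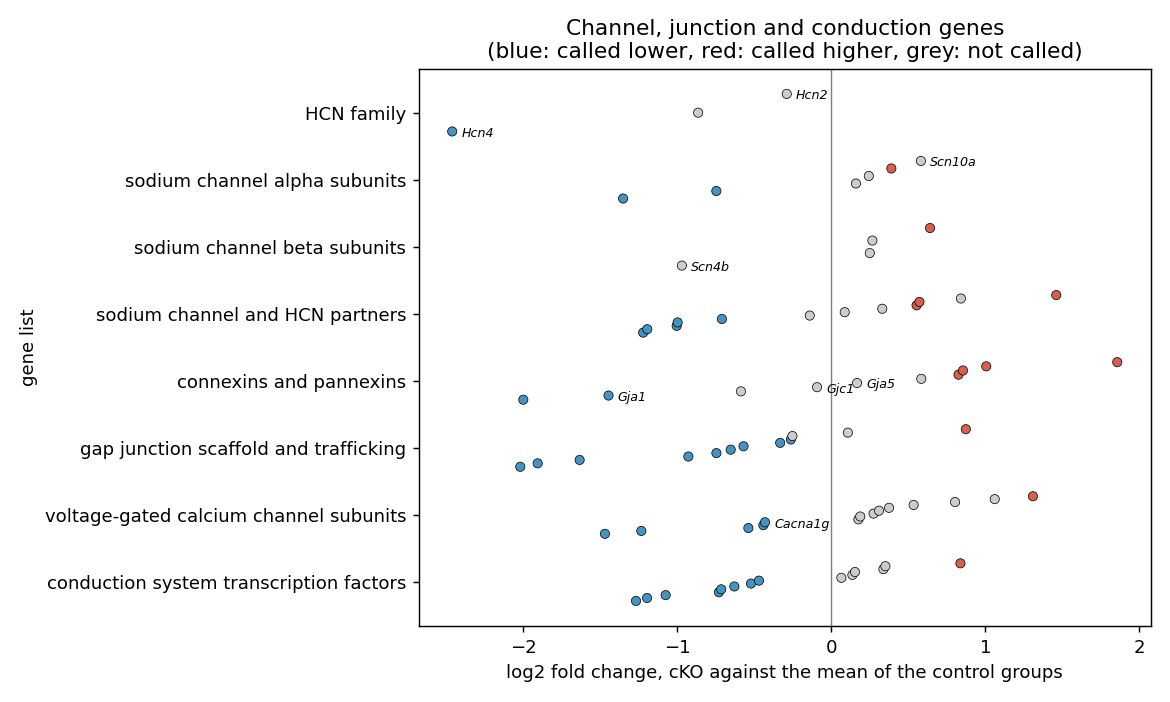
Log2 fold change (cKO against the mean of the controls) of every tested gene in each of the 8 lists, each point 1 gene, blue where called lower, red where called higher and grey where not called, with a line at 0 and names at the 8 members. In the scaffold list 9 of 12 genes were called lower, where 26.5% of all genes were, and Hcn4 (-2.46) is the lowest of the HCN family.

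Of the transcription factors that shape the conduction system, 14 were tested, 8 were lower and 1 higher, where 26.5% and 25.6% of all genes were. Tbx20, Irx3, Gata4 and Gata6 fell by 2.41-fold, 2.29-fold, 2.11-fold and 1.66-fold, and Id2 rose 1.79-fold. Irx3 is a regulator of Purkinje conduction, and its level went from 41.7 ± 3.91 to 18.1 ± 3.47 CPM (SD, n = 4 each). The nodal regulators did not pass the test: Tbx3 was at 0.07 (SE 0.14), Tbx18 at 0.15 (SE 0.15) and Shox2 at 0.34 (SE 0.36) on the log2 scale. Nkx2-5 (0.14) and Tbx5 (0.35) were not called either.

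Sinoatrial node markers as a group, 8 genes of which 7 were tested, summed to between 92.2 and 108 CPM in cKO and between 92.3 and 129 in controls. Vsnl1 was called higher and Rgs6 lower. None was at 0 in all hearts. Purkinje fibre markers summed to between 66.9 and 87.0 CPM in cKO and 76.4 and 97.9 in controls. Of these, 2 of 8 were called higher, Cntn2 (1.80-fold) and Pcp4 (1.91-fold), and 3 lower, Irx3, Etv1 and Slit2. Over all genes, 25.6% were called higher and 26.5% lower. The part of nodal or Purkinje cells in the Hcn4 values was not tested.

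The genes whose profile across the 8 hearts was most like each member were found by the root mean square difference of centred log2 CPM, among 12265 candidates. For Gja1 the nearest was Trim55, a muscle ring-finger protein of the sarcomere, with a difference of 0.0617 on the log2 scale, followed by Klhdc1 at 0.109. For Hcn4 it was the pseudogene Got2-ps1 at 0.190, whose counts may include reads of Got2, followed by Ctnna3 at 0.359. Hcn2 was followed by Galc (0.151) and Tgm2 (0.157), and Cacna1g by B3glct (0.139) and Ackr3 (0.157).
The profile of Scn4b, high in Cre heart 2 and low in cKO heart 4, was shared most closely by Bdh1 (0.354), a ketone body enzyme with 105 CPM in the former and 11.7 in the latter, and then by Wdfy2 (0.395). Scn10a was nearest to Eya1 (0.214) and Carns1 (0.234), and Carns1 too was highest in cKO heart 2, at 124 CPM. Gja5 was nearest to Zswim3 (0.147) and to the T-type channel gene Cacna1h (0.159), which at 23.3 CPM was also lowest in Cre heart 2. Gjc1 was nearest to Zhx3 (0.0794) and Sppl3 (0.0810), both lowest in cKO heart 2 and highest in cKO heart 4, as Gjc1 was. The likeness is over 8 hearts only and includes the difference between genotypes.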

How the data were processed

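The authors deposited a table of estimated counts per gene for the 8 libraries, made from heart RNA extracted with TRIzol and a NEBNext Ultra kit, per the labels' protocols. STAR 2.5.1b, DESeq2, mm10 and GRCm38 are listed in the submitters' processing notes. The counting program, annotation and strand setting were not given in the sources used here. Of the values above 0, 71.95% to 76.34% per library were whole within 1e-06, so they were taken for estimated (expected) counts and rounded. No column of the table was left out.

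All 8 libraries were fitted with 3 group means (5 residual degrees of freedom) in edgeR 4.0.16 (R 4.3.3) with TMM scaling, filterByExpr and robust dispersion, and contrasts were tested by its quasi-likelihood test with Benjamini-Hochberg adjustment over 15289 genes, a gene being called at an adjusted p under 0.05. The main contrast compared cKO with the average of both control groups, equally weighted. CPM use TMM factors. Levels per kb use the longest GENCODE M21 transcript, whose isoform may differ from that expressed. Ratios were tested by exact permutation. The series' design text counts mice, and the spread behind every p-value is that among these hearts. No pair of libraries of a group agreed within sampling noise.

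The members, gene lists and markers were chosen with earlier results of these data known. Genes named are the members, Elmsan1, up to 4 called genes of each list in each direction, and the 2 nearest profiles of each member (log2 CPM with a prior count of 2, mean of at least 1 CPM). Marker genes, and uncalled genes of the lists, were named beyond that rule after their values were seen. Alternatives were other scalings, DESeq2 1.42.0, limma voom (3.58.1), other filters, a non-robust fit, a replicate block, a length and GC offset (mgcv 1.9.3), controls pooled, fits restricted to the groups compared, and leaving out libraries. The fit was tested on simulated counts. Some genes of the lists are not reported here. Promoters are RefSeq windows (GRCm38.p6), with 6 of 8 members matched. Figures were drawn with matplotlib 3.10.9.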

Additional observations from a re-analysis of the deposited data

Results flagged for a closer look

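Among 41 results checked for a heart far from the others of its group, 2 were found, where chance gives about 1 in 20. Both were cKO heart 4. Its Elmsan1 level was 12.0 CPM where the other cKO hearts had 15.2 to 15.5, a gap of 0.912 of the group's range. Its Id2 level was 13.3 CPM, with the others between 9.73 and 9.93 (gap 0.944). None of the 8 genes was found this way.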

How the results depend on the processing

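Hcn4 and Gja1 were called lower in cKO under all 21 alternatives of the main contrast and all 19 of each cKO contrast with a single control group. The number of members called lower in the main contrast (3) ranged from 2 to 4, both over all alternatives and when single libraries were left out (4 without cKO replicate 4). No member was called higher in the main contrast as reported, 1 was without both Cre libraries, and 0 to 2 were when single libraries were left out (2 without Cre replicate 1). Against floxed hearts 1 was called higher with upper-quartile scaling, library size alone, DESeq2, the length and GC offset and a fit of only the groups compared, and 0 to 1 when libraries were left out. Against Cre hearts this range was also 0 to 1 (1 without Cre replicate 1). The lists had 12 genes called higher and 32 lower in the main fit. These counts were 7 and 29 with the offset, 16 and 28 with library size alone and 17 and 29 with upper-quartile scaling. With the offset Cav3 and Rangrf turned to -0.14 and -0.045 (log2). The cause was not tested. Of the genes called, 50.9% were lower in the main fit, 38.5% with library size alone, 40.7% with upper-quartile scaling and 69.3% with the offset. The median log2 fold change of all genes moved from 0.04 to 0.17, 0.16 and -0.11. Same-numbered hearts of different groups correlated at -0.106 to 0.136. With 2 hearts in each control group, this check cannot decide whether the numbers pair the hearts, and other numberings were not checked. The numbers are those of the sample titles, and the library names number the floxed hearts 2 and 3, which would change the blocks. A replicate block, to which cKO hearts 3 and 4 add nothing, gave 4 members lower and 1 higher in the main contrast, 4 and 1 against floxed and 3 lower against Cre. Under it Hcn2 was at -0.74 (edgeR adjusted p = 0.00406) and Scn10a at 0.95 (edgeR adjusted p = 0.0331). Low counts limit Hcn4 in cKO (32 to 62 estimated counts) and Gjd3 (at most 34). Where a library was left out of a control group, the lone heart was assumed to vary like the other groups. The 3 called ratios of members stayed separated with the offset. Leaving out a library could not have changed that, since separated groups stay so.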
